A study of Mus musculus with 24 samples.

Results

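Keratins are the intermediate filament proteins of epithelial cells, and each filament is assembled from a type I chain and a type II chain, so the genes work in pairs. Simple keratins such as Krt8 and Krt18 belong to single-layered epithelia. Stratified keratins mark the layers of skin and oral mucosa, with Krt5 and Krt14 in the basal layer and Krt4 and Krt13 or Krt1 and Krt10 in the layers above. Hair keratins form the inner root sheath or the hard, sulphur-rich hair shaft, and some of the hard keratins are also known from the papillae of the tongue.

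The family was taken as every gene whose symbol is Krt followed by a number and at most 1 letter, so the keratin-associated proteins are not in it. Of 54 such genes in the mouse gene table, 41 had a probe set naming that gene alone, out of 17097 genes measured in this way. The other 13 keratins (Krt9, Krt17, Krt24, Krt28, Krt32, Krt39, Krt40, Krt72, Krt74, Krt76, Krt82, Krt87 and Krt90) were not analysed here. Where a gene had several probe sets, which held for 7 members, the one with the highest mean over 24 arrays stood for it. A gene whose mean lay below 6.27 on the log2 scale, the 40th percentile of all probe sets, was called dim and left out of the tests, which left 30 keratins among 11844 genes. By class these were 5 of 6 simple, 13 of 17 stratified, 3 of 6 hair root sheath and 8 of 10 hair shaft keratins, with Krt88 in no class.

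The RNA came from the neural fraction of the stroma of tumours grown in the mouth of NSG mice, an immunodeficient strain, from SCC25 cells, a human oral squamous carcinoma line. Before grafting, the tumour cells had been given the EGR2 hairpin shEGR2_40.9, the EGR2 hairpin shEGR2_38.9, the GAL hairpin shGAL or the non-targeting construct PLKO, and the mice ate a PA-rich diet, rich in palmitic acid, or a control diet. Each of the 8 groups had 3 arrays, which the series calls technical replicates, so every p-value below measures only the spread between these arrays. The hairpins act in human tumour cells while the probe sets are designed for mouse transcripts, and whether human keratin transcripts of the tumour bound to them was not tested.

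The labelled neural identity was only partly visible in the markers. Of 12 Schwann cell markers, 8 had a usable probe set and 7 were above the dim level, among them Egr2 and Erbb3, while S100b was dim. Of 11 neuron markers on the array, 5 were above the dim level, and Nefl, Nefm, Snap25 and Syt1 were dim. All 13 epithelial markers on the array other than keratins were above it, with Cdh1 at a mean of 11.18 and Cldn4 at 12.14. In bulk RNA of this kind, fewer cells of a type and less RNA per cell cannot be told apart. In array 3 of the control-diet shEGR2_38.9 group, the Gapdh signal was 0.76 higher at the 3′ than at the 5′ end of the transcript on the log2 scale, against differences of -0.12 to 0.08 on the other 23 arrays. The calls that leaving this array out ended are named beside the results. The labels also give a scan batch for each array: there are 6 batches of 4 arrays, both diets of a replicate number share one, and PLKO shares 1 batch with each hairpin.

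The genes lie in 2 clusters, with the type I genes on mouse chromosome 11 and the type II genes on chromosome 15. Krt18, a type I gene, is the exception and sits next to its partner Krt8 on chromosome 15. The promoters of 4 keratins that were low in 1 group, described below, are shown beside that of Krt5, which was not called there. Each is 120 bases long and ends at the base before the annotated transcript start, read 5′ to 3′ on the minus strand from the RefSeq annotation of build GRCm38.p6. Capitals mark the TATA-like letters TATAA or ATAAAA, which were chosen after these letters had been seen.
Krt84 (chr15:101532821-101532940): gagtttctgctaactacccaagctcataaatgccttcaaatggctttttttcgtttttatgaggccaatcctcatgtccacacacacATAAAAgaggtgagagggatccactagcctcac
Krt36 (chr11:100105627-100105746): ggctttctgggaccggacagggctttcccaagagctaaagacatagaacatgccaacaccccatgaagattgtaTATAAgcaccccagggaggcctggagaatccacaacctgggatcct
Krt78 (chr15:101954288-101954407): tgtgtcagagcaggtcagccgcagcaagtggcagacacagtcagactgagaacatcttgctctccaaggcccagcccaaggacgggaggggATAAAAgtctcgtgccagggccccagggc
Krt23 (chr11:99493121-99493240): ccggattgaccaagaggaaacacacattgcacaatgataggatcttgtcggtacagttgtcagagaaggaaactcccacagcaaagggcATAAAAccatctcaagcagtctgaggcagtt
Krt5 (chr15:101712906-101713025): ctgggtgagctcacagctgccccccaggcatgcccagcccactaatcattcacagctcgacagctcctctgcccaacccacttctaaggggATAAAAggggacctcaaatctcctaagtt
All 5 promoters hold such letters close to the start, beginning 29 bases before it in Krt78 and Krt5, 31 in Krt23, 33 in Krt84 and 46 in Krt36. Among the 26 keratins with a promoter in the table, TATAA lay on the printed strand within the nearest 40 bases in 12 and ATAAAA in 11, and the 2 searches can count the same promoter. Over all 32851 promoters of the table the shares were 4.23% for TATAA and 2.18% for ATAAAA. Over 250 bases and both strands, the AP-1 letters TGANTCA were found in 1 of the 26 keratin promoters and in 6.75% of all promoters, and the Klf letters CCACCC in 11 and in 28.08%. A match is a description of the letters and shows no binding.

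The keratins of layered oral mucosa stood near the top of the array's scale in all groups. The basal keratins Krt14 and Krt5 had mean levels of 13.19 and 12.91 over the 24 arrays. Krt6a and Krt16, which layered epithelia make during wounding and in the oral lining, were at 13.14 and 12.79, and Krt4 and Krt13, the pair of the upper layers of moist mucosa, at 12.61 and 12.58. Among hair shaft keratins, Krt36, Krt84 and Krt35 had means of 12.22, 11.49 and 10.50, while the other 5 kept in that class lay between 6.84 and 7.76. The simple keratins were dimmer, led by Krt23 at 8.61, Krt18 at 7.26 and Krt7 at 6.79. Probe sets differ in brightness, so these means place each probe set on the scale of the array and do not rank the genes by transcript number. Krt14 was 0.35 to 0.49 log2 units below the brightest probe set of its array and Krt6a 0.34 to 0.66, so a further rise of either could hardly be measured.

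The 11 dim keratins were Krt20, Krt79, Krt77, Krt12, Krt2, Krt27, Krt73, Krt26, Krt33a, Krt86 and Krt222. Krt79 at 6.27 and Krt27 at 6.24 lay just under the dim level, and Krt19 at 6.42 just above it. Krt20, a marker of Merkel cells and gut epithelium, averaged 5.51.

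One group differed from the other 7 in some of its hair shaft and stratified keratins. In shEGR2_38.9 tumours on the control diet, 7 keratins were lower on all 3 arrays than on any of the other 21 arrays. They were the hard keratins Krt84, Krt36 and Krt35 and the stratified keratins Krt4, Krt13, Krt6b and Krt78. These are 7 of 30 keratins, against 3.77% of all 11844 genes that lay below all other arrays in that group. Krt84 was 4.05-fold lower there than in the group with the same hairpin on the PA-rich diet and 3.35-fold lower than in PLKO tumours on the control diet. The basal keratins Krt5 and Krt14 were not called in either comparison, and neither were the stratified keratins Krt1, Krt80, Krt6a and Krt16. That group had the lowest mean of the 8 for 20 of the 30 keratins.

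**Figure D1:**
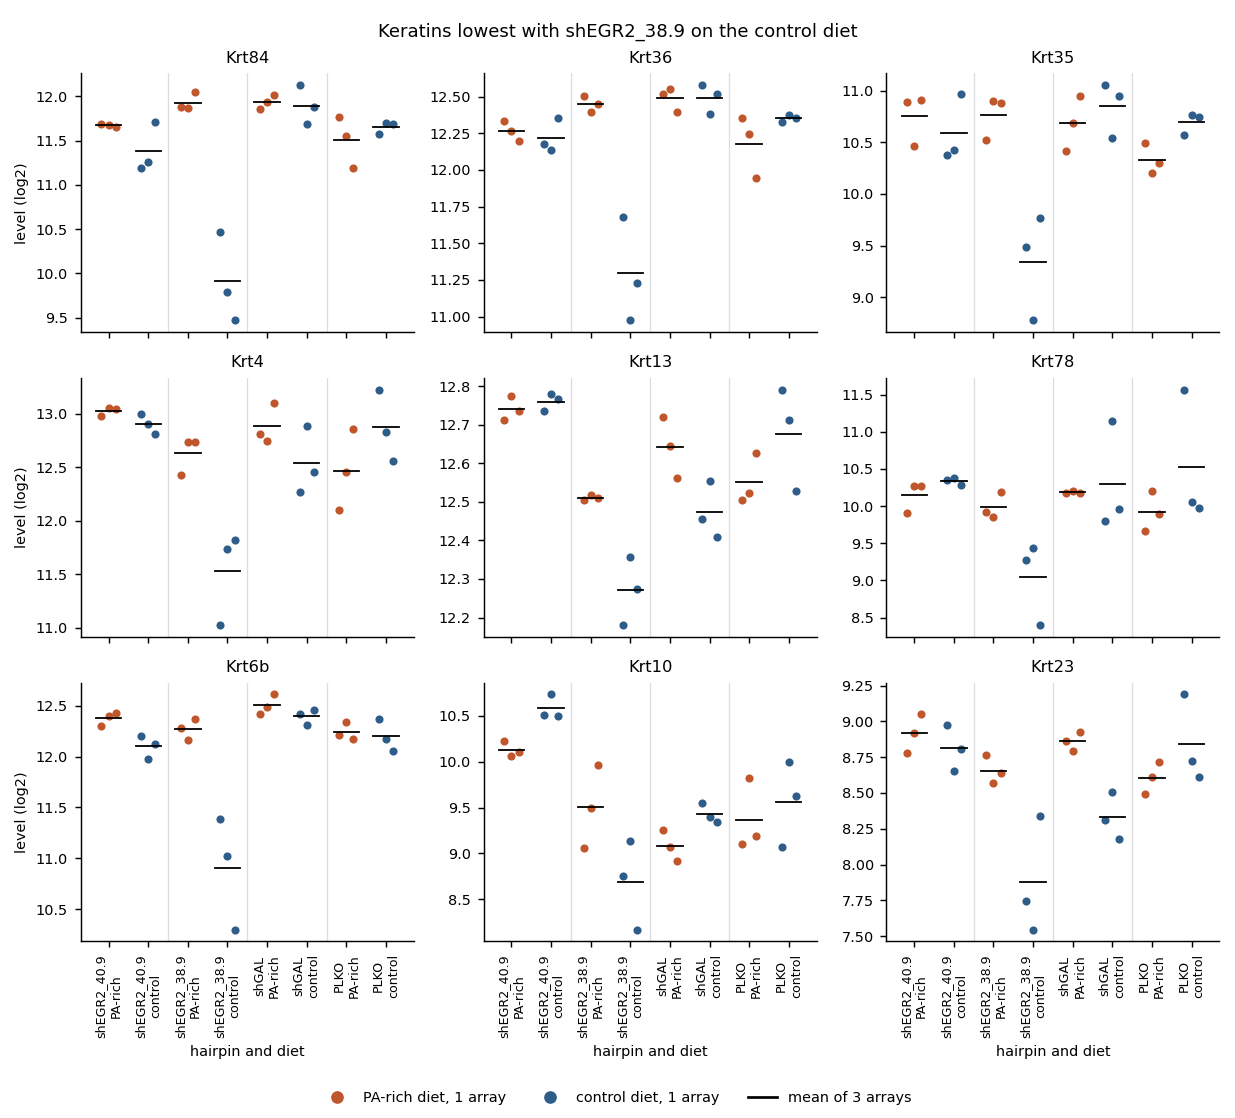
Level of 9 keratins on each of 24 arrays, on the log2 scale of the deposited values, by hairpin and diet, with PA-rich points left of control points and a line at the mean of 3 arrays. The 3 arrays of shEGR2_38.9 on the control diet lie below all other arrays for Krt84, Krt36, Krt35, Krt4, Krt13, Krt78 and Krt6b, and overlap other groups for Krt10 and Krt23.

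Krt84, a type II hard keratin, had levels of 11.88, 11.86 and 12.04 with shEGR2_38.9 on the PA-rich diet, against 10.47, 9.80 and 9.47 on the control diet. The PLKO arrays on the control diet were at 11.58, 11.70 and 11.68. The control-diet arrays of shEGR2_38.9 did not overlap with either group. The diet difference was 2.02 ± 0.18 (SE, adjusted p = 3.67e-08 by limma), the largest positive diet difference with this hairpin among all 11844 genes, and the difference from PLKO on the control diet was -1.74 ± 0.18 (adjusted p = 1.64e-07). Within the 3 scan batches of this hairpin, each with 1 array per diet, the PA-rich array was higher by 1.41, 2.07 and 2.57. Without array 3 the diet difference was 1.79, and another gene then exceeded it.

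Krt36, a type I hard keratin, was at 12.51, 12.40 and 12.45 on the PA-rich diet and at 11.68, 10.97 and 11.23 on the control diet with shEGR2_38.9, while the PLKO arrays on the control diet read 12.33, 12.37 and 12.35. The PLKO values lay close together, all of them above every control-diet array of shEGR2_38.9. The diet difference was 1.16 ± 0.12 (adjusted p = 2.95e-07, limma). Krt35, also a type I hair shaft keratin, was at 10.52, 10.90 and 10.88 on the PA-rich diet and at 9.49, 8.77 and 9.77 on the control diet. Its diet difference was 1.42 ± 0.20 (adjusted p = 1.99e-05, limma), and its difference from PLKO on the control diet -1.35 ± 0.20 (adjusted p = 2.8e-05). Of the 5 dimmer hair shaft keratins that were tested, Krt33b alone was called, at 0.29 ± 0.10 (adjusted p = 0.0468), and it was not called against PLKO. For Krt31 the diet difference was 0.03, with a 95% interval from -0.13 to 0.20.

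Krt4 and Krt13 form the filament pair of the upper layers of the oral lining. With shEGR2_38.9, Krt4 was at 12.42, 12.74 and 12.74 on the PA-rich diet, against 11.02, 11.74 and 11.82 on the control diet, a difference of 1.10 ± 0.20 (adjusted p = 0.000282, limma). A second Krt4 probe set gave 1.24. Krt13 was at 12.50, 12.52 and 12.51 on the PA-rich diet and at 12.18, 12.36 and 12.27 on the control diet. Neither gene's groups overlapped, but the Krt13 difference was far smaller than that of its partner, at 0.24 ± 0.07 (adjusted p = 0.0163, limma). The 2 other Krt13 probe sets, with means of 6.82 and 6.72, gave 0.58 and 0.02, so the size for Krt13 depends on the probe set.

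Krt6b, a keratin of activated and oral epithelium, had levels of 12.28, 12.17 and 12.36 with shEGR2_38.9 on the PA-rich diet, against 11.38, 11.02 and 10.30 on the control diet. The 2 sets of arrays did not overlap, and the difference was 1.37 ± 0.16 (adjusted p = 1.11e-06, limma). Its near-identical neighbour Krt6a differed by 0.16, with a 95% interval from -0.003 to 0.32 (adjusted p = 0.151), and how far the 2 probe sets share transcripts was not tested. Other Krt6a probe sets gave 0.11 and -0.03. Krt78, which is made above the basal layer, was at 9.91, 9.85 and 10.19 on the PA-rich diet and at 9.28, 9.44 and 8.40 on the control diet, a difference of 0.94 ± 0.33 (adjusted p = 0.0451, limma, and 0.0521 with scan batch as a block). One PLKO array on the control diet stood high for Krt78, at 11.57 against 10.05 and 9.98 on the other 2.

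Krt10, the type I partner of Krt1 in the upper epidermis, was at 9.06, 9.49 and 9.96 on the PA-rich diet with shEGR2_38.9 and at 8.76, 9.13 and 8.17 on the control diet. The 2 sets overlapped, and the difference was 0.82 ± 0.23 (adjusted p = 0.0143, limma). Krt23, a type I keratin, was at 8.77, 8.57 and 8.64 on the PA-rich diet, against 7.75, 7.55 and 8.34 on the control diet. These arrays did not overlap, and the difference was 0.78 ± 0.16 (adjusted p = 0.000764, limma). It was the only simple keratin called with this hairpin, and Krt8, Krt18, Krt7 and Krt19 had differences between -0.14 and 0.01.

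In all, 10 of 30 keratins rose and 0 fell on the PA-rich diet with shEGR2_38.9, against 13.8% of all genes that rose and 22.1% called in either direction. They were 1 of 5 simple, 5 of 13 stratified, 0 of 3 hair root sheath and 4 of 8 hair shaft keratins. The median difference was 0.16 over the 30 keratins and 0.07 over all genes tested. Without array 3 the count was 7, against 10.4% of all genes that then rose: Krt84 (1.79), Krt35 (1.64), Krt4 (1.25), Krt36 (1.13), Krt6b (1.07), Krt23 (1.01) and Krt13 (0.24) kept the call, and Krt10 (0.56, adjusted p = 0.117), Krt78 (0.62, adjusted p = 0.254) and Krt33b (0.23, adjusted p = 0.177) did not. Krt10 and Krt78 had their largest difference in the scan batch that holds array 3, at 1.79 each, against 0.30 and 0.36 for Krt10 and 0.63 and 0.41 for Krt78 in the other 2 batches of this hairpin. Of the 24 fits that left out 1 array, 17 lost the diet call of Krt33b, 14 that of Krt78, 2 that of Krt10 and 2 that of Krt13. Among the 8 other settings, 3 lost it for Krt33b, 3 for Krt78, 2 for Krt13 and 1 for Krt10.

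The keratins of the basal layer were not called in this comparison. Krt14 was at 13.23, 13.19 and 13.21 on the PA-rich diet with shEGR2_38.9, against 13.19, 13.19 and 13.04 on the control diet. Krt5 was at 12.99, 12.92 and 12.87, against 12.97, 12.91 and 12.43. For both genes the groups overlapped, and the low value was that of array 3. The diet differences were 0.07 for Krt14 (95% interval -0.05 to 0.19) and 0.16 for Krt5 (-0.05 to 0.36), neither of them called. Without array 3 they were 0.02 for Krt14 and -0.01 for Krt5. A second Krt14 probe set, with a mean of 12.90, gave a diet difference of 0.16 with array 3 kept, which was not tested. Krt16 differed by 0.06 (-0.10 to 0.21) and Krt15, another basal keratin, by 0.05 (-0.20 to 0.30). Since Krt14 and Krt6a were so close to the brightest signal of the arrays, a difference between their groups may be understated. Krt5 was 0.52 to 0.98 and Krt16 0.62 to 0.99 log2 units below the brightest probe set of the array. The same may hold for these genes.

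**Figure D2:**
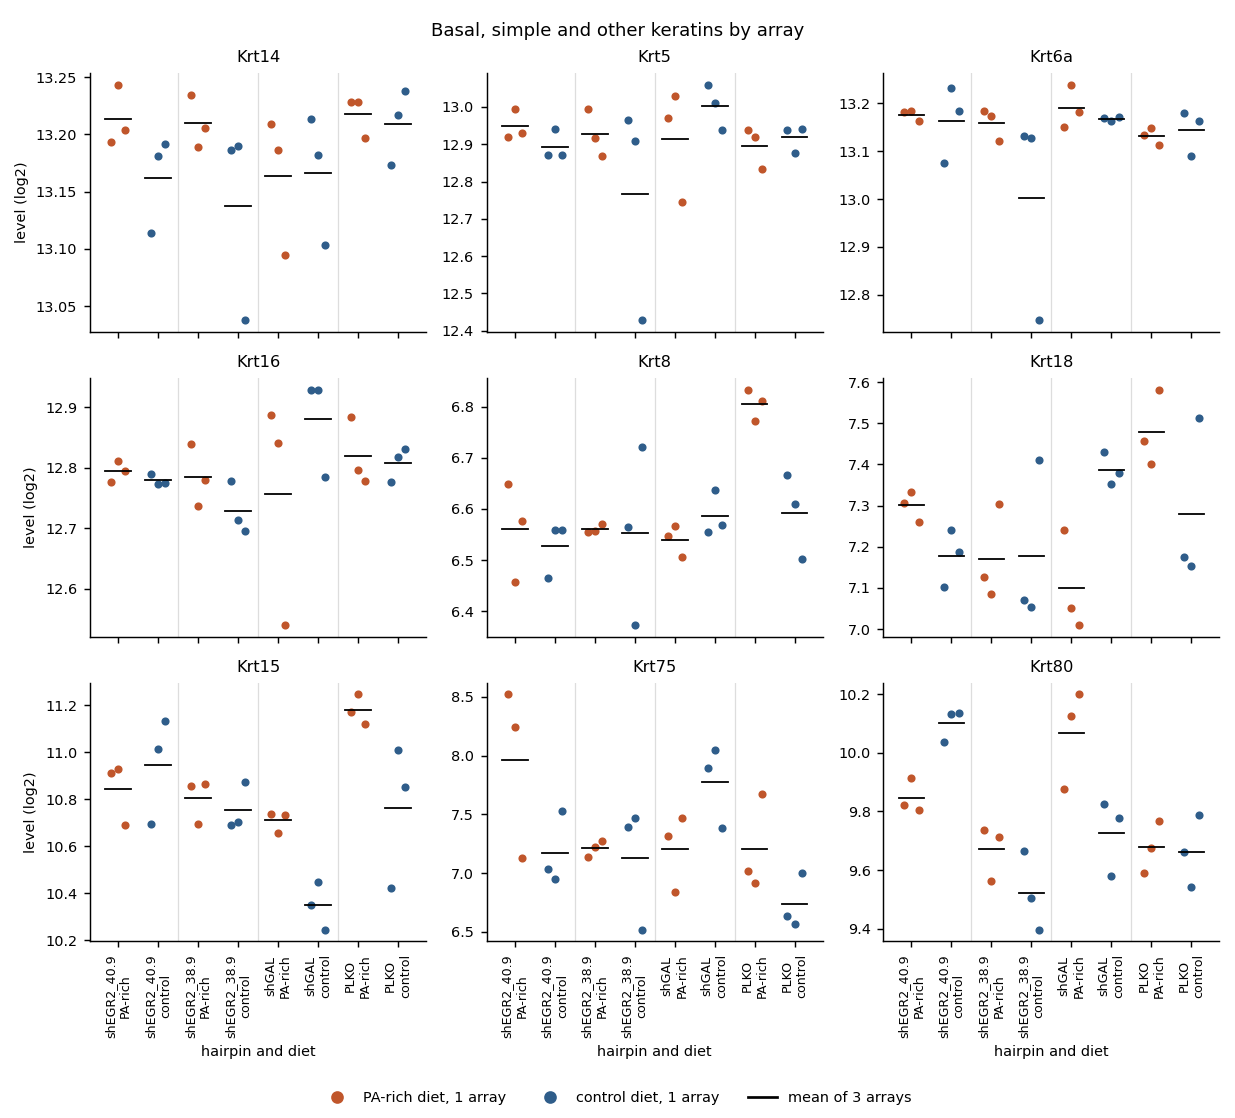
Level of 9 further keratins on each of 24 arrays, on the log2 scale, by hairpin and diet, with PA-rich points left of control points and a line at the mean of 3 arrays. The axes differ between panels. The low Krt5, Krt6a and Krt14 point of shEGR2_38.9 on the control diet is array 3, the 3 PLKO arrays on the PA-rich diet are the highest for Krt8, and the 3 shGAL arrays on the control diet are the lowest group for Krt15.

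On the control diet, 9 of 30 keratins fell with shEGR2_38.9 relative to PLKO and 0 rose, against 19.1% of all genes that fell and 30.4% called in either direction. The share called in either direction was thus no higher than that of all genes. A fit on only the arrays compared called 8 keratins and 1470 of 11844 genes, the lowest count over all genes of any setting tried. The 9 were Krt84, Krt78, Krt35, Krt4, Krt6b, Krt36, Krt23, Krt10 and Krt13, with differences from -1.74 to -0.41. This comparison uses the same shEGR2_38.9 control-diet arrays as the diet comparison, so the 2 sets of calls are not separate evidence. Without array 3, Krt10 lost the call (-0.62, adjusted p = 0.0631), 8 keratins fell and Krt42 rose by 0.63, against 27.1% of all genes called either way. In the scan batch that both hairpins share, with 1 array each, the differences were -1.91 for Krt84, -1.99 for Krt35, -1.40 for Krt36, -1.09 for Krt4, -1.15 for Krt6b and -0.36 for Krt13.

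On the PA-rich diet, 0 of 30 keratins were called between shEGR2_38.9 and PLKO by limma, against 0.625% of all genes. At an unadjusted p under 0.05 there were 7, and the other settings tried gave at most 1. The difference for Krt84 was 0.43, with a 95% interval from 0.05 to 0.80, and for Krt4 0.17, from -0.25 to 0.58. The largest difference was that of Krt1, at -0.71, with group means of 6.61 with shEGR2_38.9 and 7.33 with PLKO, and it was not called. In the fit without the shEGR2_38.9 control-diet array of unusual Gapdh signal, 1 of 13 stratified keratins was called lower here. For the keratins that fell on the control diet, the low levels were thus not detected in this hairpin's PA-rich arrays.

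Some keratins had larger diet differences with shEGR2_38.9 than with PLKO. The gap between the 2 diet differences had a median of 0.06 over the 30 keratins and of 0.06 over all genes. For 9 keratins the diet difference was higher with shEGR2_38.9 than with PLKO in a direct test, against 7.84% of all genes that were higher and 13.4% called either way. The largest gaps were those of Krt84 (2.17, adjusted p = 5e-06), Krt35 (1.79, adjusted p = 0.000204), Krt78 (1.56, adjusted p = 0.0299) and Krt4 (1.51, adjusted p = 0.000832, all by limma). The PLKO diet differences themselves were -0.15 for Krt84, -0.36 for Krt35, -0.61 for Krt78 and -0.40 for Krt4, none of them called. Without array 3, 7 keratins kept this call, against 7.49% of all genes that were then higher, and Krt10 (0.76, adjusted p = 0.133) and Krt78 (1.24, adjusted p = 0.0924) did not. The call for Krt10 was also lost in 20 of the 24 fits that left out 1 array. Against the other EGR2 hairpin, shEGR2_40.9, the diet difference was higher with shEGR2_38.9 for 6 keratins, Krt84, Krt10, Krt35, Krt36, Krt6b and Krt4, against 3.77% of all genes that were higher and 5.57% called either way. Without array 3, Krt10 lost this call (1.01, adjusted p = 0.0706) and Krt23 gained it (0.90, adjusted p = 0.00462), and the call for Krt4 was lost in 11 of the 24 fits that left out 1 array.

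**Figure D3:**
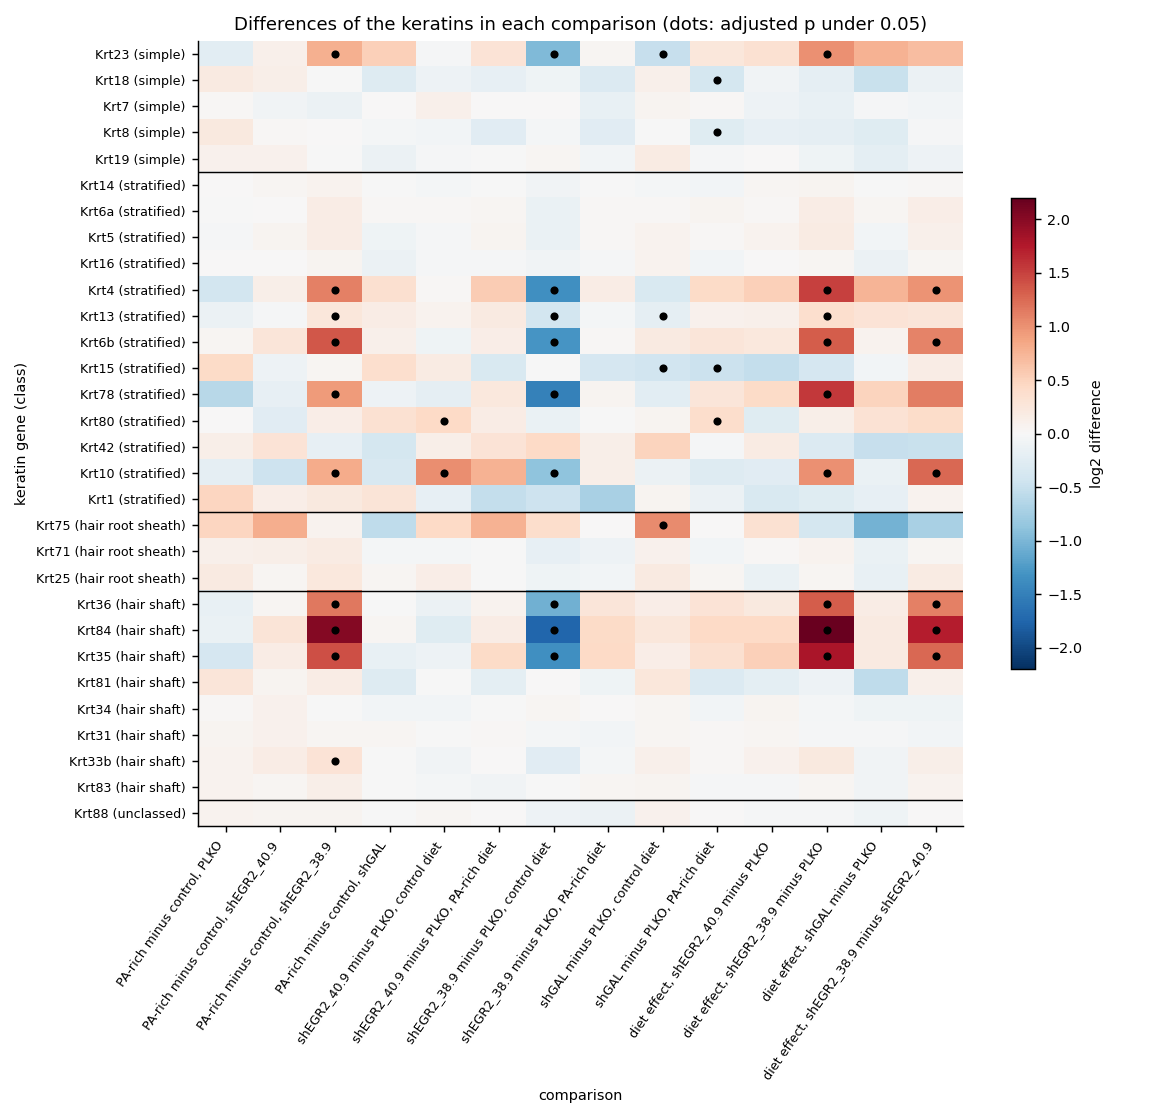
Log2 difference of each of the 30 keratins above the dim level (rows, by class) in each of 14 comparisons (columns), in colour, with a dot where the adjusted p was under 0.05. Columns that use the shEGR2_38.9 control-diet arrays hold 34 of the 44 dots, and the rows of Krt14, Krt5 and Krt16 hold none.

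Genes that build the upper layers of the same epithelia were called in the same comparisons. Of 16 cornified envelope genes tested, 10 rose and 0 fell on the PA-rich diet with shEGR2_38.9, with a median of 0.45, against 13.8% of all genes that rose. They include Tgm3, a transglutaminase that cross-links the envelope (1.00 ± 0.09), Cnfn (1.34 ± 0.14) and the envelope precursor Sprr1b (1.25 ± 0.14). Of 13 desmosome genes, which anchor keratin filaments to cell junctions, 9 rose and 0 fell, with a median of 0.31. The upper-layer desmosomal cadherins Dsg1a (1.16 ± 0.11) and Dsc1 (1.37 ± 0.20) had the smallest adjusted p-values. Against PLKO on the control diet, 9 cornified envelope and 8 desmosome genes fell and 0 rose, against 19.1% of all genes that fell.

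Among 12 partners of the hair follicle, 5 rose and 0 fell on the PA-rich diet with shEGR2_38.9, beside the same 13.8% of all genes. Hoxc13, a transcription factor that activates hair keratin genes, differed by 0.95 ± 0.14 between diets and by -1.13 ± 0.14 from PLKO on the control diet. Dlx3, another hair and epidermal factor, rose by 0.47 on the PA-rich diet. Of 14 epithelial transcription factors 8 rose and 0 fell, among them Ehf (0.51 ± 0.09), Zfp750 (0.48 ± 0.08) and Grhl3 (0.52 ± 0.09), which act in keratinocyte differentiation. Of 8 hemidesmosome genes, which tie basal cells to the basement membrane, 1 rose and 1 fell, against 13.8% and 8.30% of all genes. Their median was 0.13, against 0.07 over all genes. Without array 3, 1 of them rose and 0 fell, with a median of 0.03. Without array 3 the counts were 10 of 16 cornified envelope, 8 of 13 desmosome, 3 of 12 hair follicle and 8 of 14 transcription factor genes that rose, against 10.4% of all genes. No test compared these lists with other genes.

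Markers of other cells moved as well. Of 13 epithelial markers that are not keratins, 7 rose and 0 fell on the PA-rich diet with shEGR2_38.9 (median 0.36), with array 3 and without it, against 13.8% and 10.4% of all genes that rose. Their summed level on the log2 scale was 14.13 to 14.26 on the control-diet arrays of that hairpin, against 14.40 to 14.79 on the other 21 arrays, and none of the 13 was dim. Against PLKO on the control diet 8 fell (7 without array 3), while the epithelial adhesion genes Epcam (0.39) and Cldn7 (0.49) rose, against 19.1% of all genes that fell and 11.2% that rose. Of 10 endothelial markers, 8 fell and 0 rose on the PA-rich diet with shEGR2_38.9 (median -1.56), against 8.30% of all genes that fell, and 9 fell without array 3. Their summed level was 12.09 to 12.33 on the PA-rich and 13.42 to 13.71 on the control-diet arrays. Endothelial markers were also high with shEGR2_40.9 on the control diet, at 13.02 to 13.29, where Krt84, Krt36, Krt35 and Krt4 did not differ from PLKO by a called amount. Of 3 immune markers above the dim level, 2 fell on the PA-rich diet with shEGR2_38.9. The 7 actin, ribosomal and other control genes had a median of 0.22 between diets, with 0 called, and of -0.23 against PLKO on the control diet, where 3 fell. Without array 3 these medians were 0.01 and -0.04, and 1 control gene fell against PLKO. The part of these markers and of RNA quality in the keratin differences was not tested. Among 8 other intermediate filament genes, Vim and Synm, which are filament genes of stromal and muscle cells, fell by 1.16 and by 1.35 on the PA-rich diet.

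**Figure D4:**
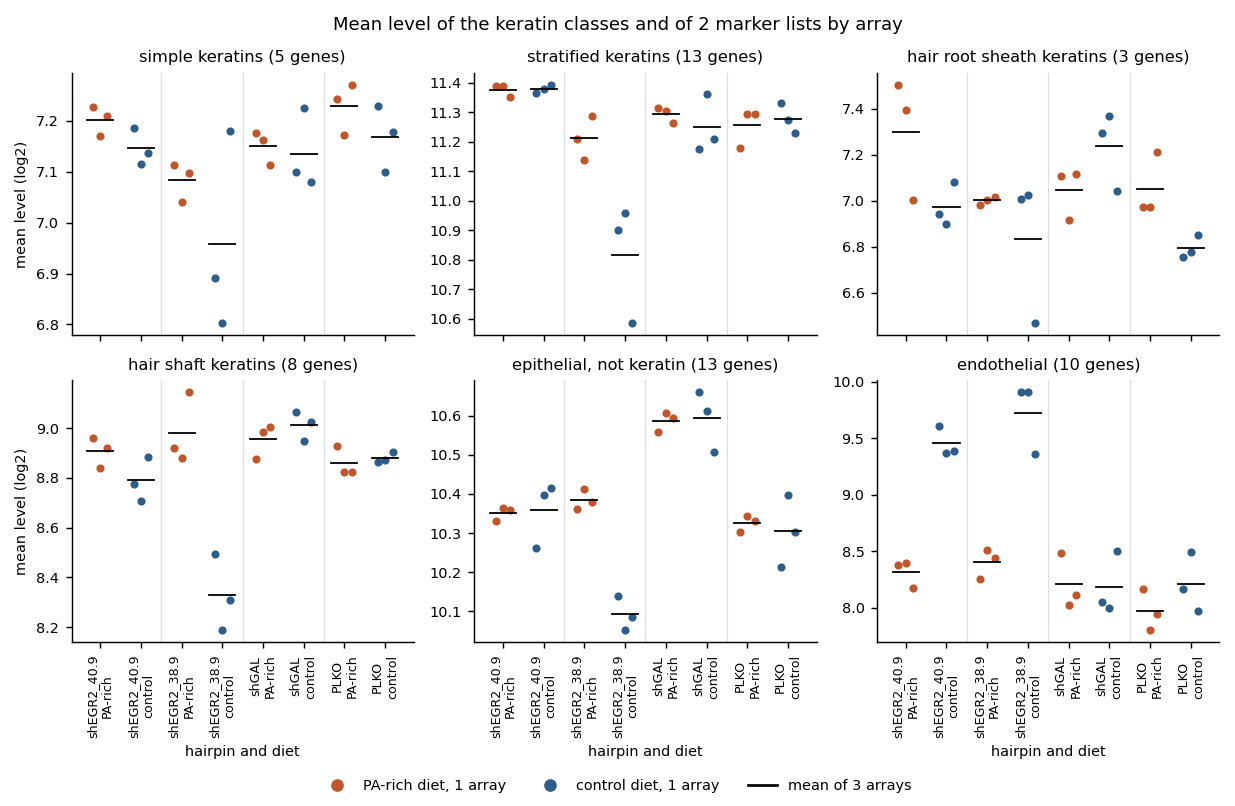
Mean log2 level of 4 keratin classes (upper panels and lower left) and of 2 marker lists (lower middle and right) on each of 24 arrays, by hairpin and diet, with a line at the mean of 3 arrays. The hair shaft and stratified means of shEGR2_38.9 on the control diet lie below all 21 other arrays, while the endothelial mean is high in the control-diet arrays of both EGR2 hairpins.

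Averaged over a class, all 3 arrays of the same group were low for hair shaft and stratified keratins. For simple and root sheath keratins they overlapped the other groups. The mean of the 8 hair shaft keratins was 8.19, 8.31 and 8.49 on the control-diet arrays of shEGR2_38.9, in order of size, against 8.71 to 9.14 on the other 21 arrays. The 13 stratified keratins averaged 10.59 to 10.96 there, against 11.14 to 11.39. For the 5 simple keratins the ranges were 6.80 to 7.18 and 7.04 to 7.27, and for the 3 root sheath keratins 6.47 to 7.02 and 6.76 to 7.50, so both overlapped. The lowest root sheath and stratified values were those of array 3. Without it the other 2 arrays of that group averaged 10.90 and 10.96 for stratified and 7.01 and 7.02 for root sheath keratins. For hair shaft keratins they averaged 8.19 and 8.49. Array 3 was the highest of the group for simple keratins, and the other 2, at 6.80 and 6.89, lay below all 21 arrays of other groups. A few members can move such class means. Against PLKO on the control diet, hair shaft keratins differed by -1.74 to 0.04, with a median of -0.15. Stratified keratins differed by -1.49 to 0.44 (median -0.15) and simple keratins by -0.96 to 0.05 (median -0.04).

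With PLKO, shEGR2_40.9 and shGAL, the diet comparison called 0 of 30 keratins in each case by limma. The background was 1.18% of all genes with PLKO, 8.95% with shEGR2_40.9 and 1.94% with shGAL. At an unadjusted p under 0.05 there were 4, 2 and 6 keratins in that order. The 8 other settings called at most 0, 2 and 1, and the fits that left out 1 array at most 1, 1 and 2. Krt84 differed between diets by -0.15 with PLKO (95% interval -0.52 to 0.22), by 0.29 with shEGR2_40.9 (-0.08 to 0.66) and by 0.04 with shGAL (-0.33 to 0.41). All 3 intervals end well under the 2.02 seen with shEGR2_38.9. The diet difference was also not called as different from PLKO for any keratin with shEGR2_40.9 (4.16% of all genes) or shGAL (1.33%). There 1 and 8 keratins had an unadjusted p under 0.05. The 8 other settings called at most 0 and 1, and the fits that left out 1 array at most 1 and 2.

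On the control diet, 2 of 30 keratins (6.67%) rose with shEGR2_40.9 relative to PLKO and 0 fell. Over all genes 7.19% rose and 12.1% were called either way, so the keratin share was no higher. Krt10 was at 10.51, 10.73 and 10.49 with shEGR2_40.9 and at 9.07, 9.998 and 9.63 with PLKO. Its 3 arrays lay above all 21 others, as 0.371% of all genes did in that group, and the difference was 1.02 ± 0.23 (adjusted p = 0.0054, limma). Krt1, its type II partner, differed by -0.19 (95% interval -0.54 to 0.17). Krt80, a keratin that appears as cells leave the basal layer, was at 10.04, 10.13 and 10.14 with shEGR2_40.9, against 9.66, 9.54 and 9.79 with PLKO, with no overlap and a difference of 0.44 ± 0.09 (adjusted p = 0.00234). On the PA-rich diet 0 of 30 keratins were called with shEGR2_40.9, against 4.02% of all genes, while 7 had an unadjusted p under 0.05 and the other settings tried gave at most 4. Krt10 there differed by 0.76, with a 95% interval from 0.27 to 1.25 (adjusted p = 0.0732).

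Differences between shGAL and PLKO were called on both diets, for 13.3% of the 30 keratins each time. That share was near the 12.4% of all genes called on the PA-rich diet and below the 17.0% called on the control diet. On the PA-rich diet 4 of 30 were called, against 12.4% of all genes: Krt8, Krt18 and Krt15 fell and Krt80 rose. Krt8 and Krt18 are the filament pair of simple epithelia and neighbours on chromosome 15. Krt8 was at 6.55, 6.57 and 6.51 with shGAL, against 6.83, 6.77 and 6.81 with PLKO. Krt18 was at 7.24, 7.05 and 7.01, against 7.46, 7.40 and 7.58. The groups did not overlap for either, and the differences were -0.27 ± 0.07 (adjusted p = 0.0208) and -0.38 ± 0.10 (adjusted p = 0.0136, both by limma). A second Krt8 probe set, with a mean of 5.63 and so under the dim level, gave -0.18.

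For Krt8 the PLKO arrays were the unusual ones. All 3 PLKO arrays on the PA-rich diet lay above the other 21 arrays, which held for 0.414% of all genes, and every other group mean was between 6.53 and 6.59. The dim second probe set did not set PLKO on the PA-rich diet apart in this way, with a mean of 5.73 there and of 5.72 with shEGR2_38.9 on the control diet. The diet difference with PLKO was 0.21 and was not called (adjusted p = 0.228). Against the same PLKO arrays, Krt8 differed by -0.24 with shEGR2_40.9 (adjusted p = 0.0703) and by -0.24 with shEGR2_38.9 (adjusted p = 0.181), neither of them called. With a mean of 6.59, Krt8 lay not far above the dim level of 6.27.

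Krt15, a keratin of basal and follicle stem cells, was lower with shGAL on both diets. On the PA-rich diet it was at 10.74, 10.66 and 10.73 with shGAL, against 11.17, 11.25 and 11.12 with PLKO, a difference of -0.47 ± 0.12 (adjusted p = 0.0108, limma). On the control diet it was at 10.35, 10.45 and 10.25 with shGAL, against 10.42, 11.01 and 10.85 with PLKO. There the arrays overlapped, and the difference was -0.41 ± 0.12 (adjusted p = 0.019). Krt80 was at 9.88, 10.13 and 10.20 with shGAL on the PA-rich diet, against 9.59, 9.68 and 9.77 with PLKO, and rose by 0.39 ± 0.09 (adjusted p = 0.00651) with no overlap. In the scan batch that the 2 constructs share, with 1 array each, the PA-rich differences were -0.38 for Krt15, 0.43 for Krt80, -0.31 for Krt8 and -0.57 for Krt18.

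On the control diet, 4 of 30 keratins were called with shGAL, against 17.0% of all genes, and each of these calls was lost in some of the fits that left out an array or changed a setting. Krt75, a keratin of the companion layer of the hair follicle, was at 7.89, 8.04 and 7.38 with shGAL, against 6.63, 6.57 and 7.005 with PLKO. The arrays did not overlap and the difference was 1.04 ± 0.29 (adjusted p = 0.0162, limma), but 1.00 with adjusted p = 0.0556 with scan batch as a block, and 0.38 in the 1 batch they share. Krt23 was at 8.31, 8.51 and 8.18, against 9.19, 8.72 and 8.61 (-0.51 ± 0.16, adjusted p = 0.0267), and Krt15 is given above. Krt13 differed by -0.20 ± 0.07 (adjusted p = 0.04995, limma, and 0.108 with scan batch as a block), with overlapping arrays. Beside these keratins, 5 of 13 epithelial markers other than keratins rose and 0 fell with shGAL on each diet, with medians of 0.27 on the PA-rich and 0.14 on the control diet, against 7.60% and 7.15% of all genes that rose. Their part in the keratin differences was not tested.

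Over the 14 comparisons, 15 of 30 keratins were called at least once, in 44 calls. Of these calls, 28 held in all 8 other settings and in all 24 fits that left out 1 array, and 0 changed direction. The 15 keratins never called were Krt7, Krt19, Krt14, Krt6a, Krt5, Krt16, Krt42, Krt1, Krt71, Krt25, Krt81, Krt34, Krt31, Krt83 and Krt88. Among them Krt1 had the widest span of group means, from 6.40 with shEGR2_38.9 on the control diet to 7.33 with PLKO on the PA-rich diet, and Krt14 the narrowest, 0.08.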

How the data were processed

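Affymetrix mouse arrays of 24 samples were used. The values the authors deposited are on the log2 scale, and the submitters' processing notes name RMA and affy, with no version; no other upstream step is given in the sources used here. Of 45141 probe sets, 28898 named 1 gene, 551 several and 15692 none. Symbols were updated through Entrez identifiers (99.28% matched), and 17097 genes were kept with 1 probe set each. Genes below the 40th percentile (6.27) were left out of tests.

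A limma 3.58.1 model (R 4.3.3) of 8 group means used all 24 arrays, with 16 residual degrees of freedom, and p-values were adjusted by Benjamini-Hochberg over 11844 genes at a threshold of 0.05. On simulated data for the PLKO diet comparison over 11844 genes, 75 of 100 genes changed by 0.5 and 99 of 100 changed by 1 were called. Alternatives were a scan batch block, other scaling, filters and probe sets, fits on only the arrays compared, and leaving out each array.

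Named keratins are those with an adjusted p under 0.05 anywhere, the 3 brightest of each class, and dim members by name. Other lists name up to 3 called genes with the smallest adjusted p. Keratins added beside these as contrasts were chosen after their values were seen. Members, classes and lists were chosen with earlier results of these data known. Each of 6 scan batches holds 4 arrays, both diets of a replicate number among them. Residuals of same-numbered arrays correlated at -0.03 to 0.24, over 0.1 in 7 of 12 pairs. For differently numbered arrays of a hairpin the range was -0.31 to 0.11, over 0.1 in 1 of 24 pairs. The main model held no term for this pairing, and the scan batch block was the alternative that did.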

Additional observations from a re-analysis of the deposited data

Results flagged for a closer look

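The diet difference (PA-rich minus control) was larger with shEGR2_38.9 than with PLKO in a direct limma test for 9 keratins, by 2.17 for Krt84 (adjusted p = 5e-06), 1.79 for Krt35 (0.000204), 1.56 for Krt78 (0.0299), 1.51 for Krt4 (0.000832), 1.33 for Krt36 (2.01e-05), 1.33 for Krt6b (0.000313), 1.01 for Krt23 (0.00311), 1.01 for Krt10 (0.0459) and 0.37 for Krt13 (0.0163). It was larger with shEGR2_38.9 than with shEGR2_40.9 for 6 keratins, by 1.73 for Krt84 (adjusted p = 0.000166), 1.27 for Krt10 (0.0241), 1.26 for Krt35 (0.0105), 1.11 for Krt36 (0.000363), 1.09 for Krt6b (0.00471) and 0.98 for Krt4 (0.042). All 15 results rest on the 3 shEGR2_38.9 control-diet arrays. Some of them did not hold in other fits. Against PLKO, Krt10 lost the call in 20 of 24 fits that left out 1 array, and Krt78 in 5, and without array 3 of that group their adjusted p-values were 0.133 and 0.0924. Against shEGR2_40.9, Krt10 lost it in 6 such fits (adjusted p = 0.0706 without array 3), and Krt4 in 11 and in 4 of 8 other settings.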

How the results depend on the processing

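The number of keratins called changed by over 1.5 times in these cases. With scan batch as a replicate block it was 1 for the shGAL diet comparison (0 without the block), 2 for shEGR2_40.9 against PLKO on the PA-rich diet (0) and 2 for shGAL against PLKO on the control diet (4). Krt78 then lost its diet call with shEGR2_38.9 (adjusted p = 0.0521). Centring arrays on the median gave 1 for the shGAL diet comparison and 1 for shEGR2_38.9 against PLKO on the PA-rich diet, and averaging probe sets gave 1 for the shGAL diet comparison. Fitting only the arrays compared gave 2 for the shEGR2_40.9 diet comparison, 4 and 1 for shEGR2_40.9 and shEGR2_38.9 against PLKO on the PA-rich diet, 8 and 1 for shGAL against PLKO on the PA-rich and control diets, and 1 for the diet difference of shGAL against PLKO. Leaving out each array in turn gave 7 to 11 for the shEGR2_38.9 diet comparison, 0 to 1 for PLKO, 0 to 1 for shEGR2_40.9 and 0 to 2 for shGAL. Against PLKO it gave 9 to 12 for shEGR2_38.9, 2 to 2 for shEGR2_40.9 and 1 to 6 for shGAL on the control diet, and 0 to 1, 0 to 3 and 2 to 6 on the PA-rich diet. For the diet differences it gave 7 to 10 for shEGR2_38.9 against PLKO, 4 to 7 against shEGR2_40.9, and 0 to 1 for shEGR2_40.9 and 0 to 2 for shGAL against PLKO. The cause was not tested. Over all genes, the count with only the arrays compared, set against that of the model of all 24 arrays, was 1295 against 2623 for the shEGR2_38.9 diet comparison, 47 against 230 for shGAL and 70 against 140 for PLKO. Against PLKO on the control diet it was 1470 against 3595 for shEGR2_38.9, 950 against 1436 for shEGR2_40.9 and 1202 against 2013 for shGAL, and on the PA-rich diet 189 against 74 for shEGR2_38.9 and 1044 against 476 for shEGR2_40.9. For the diet differences it was 762 against 493 for shEGR2_40.9 and 105 against 158 for shGAL, both relative to PLKO, and 431 against 660 for shEGR2_38.9 relative to shEGR2_40.9. The scan batch block gave 24 in place of 74 for shEGR2_38.9 against PLKO on the PA-rich diet, and averaging probe sets 384 in place of 230 for the shGAL diet. Leaving out 1 array gave 56 to 269 for the PLKO diet comparison and up to 528 for that of shGAL, and the shares over all genes move with these counts. Renewed quantile scaling moved the split of shGAL diet calls to 121 higher and 94 lower, against 158 and 72, and that of the shGAL diet difference to 86 and 47, against 120 and 38.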
